A study of Rattus norvegicus with 36 samples.

Results

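Mammary cancers that arose in rats after gamma radiation followed by the chemical carcinogen MNU, and that carried no H-ras mutation, were compared across all measured genes with mammary cancers that arose spontaneously in untreated rats. The members of both groups were taken from the sample titles, which gave 4 cancers after radiation plus MNU and 3 spontaneous cancers, or 7 of the 36 arrays of the series. All rats were female Sprague-Dawley animals. In the radiation plus MNU group the rats received 1 Gy of whole-body gamma rays from a caesium source at 7 weeks of age and 40 mg/kg MNU into the peritoneum 3 days afterwards. The MNU cancers without H-ras mutation (n = 4) had the same chemical dose without radiation. The radiation cancers (n = 4) had the same radiation dose without the chemical. Rats of both these groups were also treated at 7 weeks of age. The spontaneous cancers came from rats given neither agent and were also labelled as nonmutated for H-ras. Normal mammary tissue (n = 3) came from untreated rats. The remaining arrays were cancers with H-ras mutation after MNU, alone or with radiation, and cancers after another chemical, PhIP, alone or with radiation. They also entered the shared estimate of the spread. Every rat of the study ate a purified diet with 23.5% corn oil from 9 weeks of age, so a diet rich in fat is common to all groups. The labels give neither the age at which a cancer was taken nor whether each array came from a different rat, and the p-values reflect only how much these samples differ among themselves, which may be technical. No probe set was annotated to Hras alone, so its level is not given, and the arrays do not read mutations, so those labels could not be checked.

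MNU (N-methyl-N-nitrosourea) is an alkylating agent that methylates DNA bases, and in rats many of the mammary cancers that it induces carry an activating mutation of H-ras. Ionizing radiation breaks DNA strands and is a mammary carcinogen by a different route. Cancers of the rat mammary gland arise from an epithelium of inner luminal and outer basal cells that responds to estrogen, progesterone and prolactin. The comparison addresses whether cancers without H-ras mutation that follow both agents differ in gene expression from those that arise without any.

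Expression was measured as an intensity for each probe set, a group of short probes for 1 transcript, and is given here as log2(intensity + 42.8). On this scale the lowest possible value is 5.42, and differences of weakly expressed genes are understated. A gene entered the tests where its probe set exceeded 7.40 on at least 3 of the 36 arrays, which left 11773 genes, each represented by its brightest probe set. Correlations between arrays ran from 0.917 to 0.959 within the radiation plus MNU group, from 0.959 to 0.969 within the spontaneous group and from 0.926 to 0.954 between both groups. The luminal genes Krt8, Krt18, Krt19, Epcam and Cdh1 and the basal genes Krt5, Krt14, Acta2 and Tp63 exceeded 7.40 on all 7 arrays, so both layers of the epithelium were represented. Oxtr, the oxytocin receptor of myoepithelial cells, and the fat cell genes Adipoq and Cidec exceeded it on none of the 7 arrays. Other fat cell genes did exceed it, Lpl on all 7 arrays, Fabp4 on 4 and Plin1 on 1. In whole tumour tissue, fewer cells of a type and less RNA per cell cannot be told apart.

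In cancers after radiation plus MNU, 1 gene rose (0.00849% of the 11773 genes) and 8 fell (0.068%) relative to spontaneous cancers, 0.0764% in all, at an adjusted p under 0.05 (limma, Benjamini-Hochberg adjustment over all genes). The gene that rose was the fat-breakdown enzyme Pnpla2. Those that fell were Vsnl1, Chst8, Obp3, Ptprd, Stc1, Gpr37, Camta1 and Prss56. The 9 genes share the same adjusted p of 0.0394. At an unadjusted p under 0.05, 379 genes had higher values (3.22%) and 734 had lower values (6.23%), together 9.45%, and the median difference over all genes was −0.04.

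Pnpla2, which encodes adipose triglyceride lipase and starts the breakdown of stored triglyceride, had values of 11.35, 10.88, 10.88 and 11.59 in the radiation plus MNU cancers, against 10.16, 9.85 and 9.98 in the spontaneous cancers. All 4 radiation plus MNU cancers lay above all 3 spontaneous cancers. The difference was 1.18 ± 0.24 on the log2 scale (SE), or 2.27-fold. Normal mammary tissue averaged 11.92, above every cancer of both groups. Of the 14 measured adipocyte genes, 9 had differences above 0 and none an unadjusted p under 0.05, and the list median was 0.02. Fabp4, a fatty acid carrier of fat cells, was at 7.30 and 6.95 in replicates 1 and 3 after radiation plus MNU, against 7.05, 7.86 and 7.55 in spontaneous cancers. Fabp4 was highest in replicate 2 of the radiation plus MNU cancers, followed by replicate 4 (9.67). Pnpla2 was highest in replicate 4, followed by replicate 1. The adipocyte list mean was 8.08, 8.52, 7.61 and 8.63 in replicates 1 to 4 of this group, so replicate 4 was highest here too. The part of fat cell content in the difference of Pnpla2 was not tested.

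Gpr37, an orphan receptor of the G protein-coupled family known best from the nervous system, had values of 10.23, 10.40, 9.52 and 10.32 after radiation plus MNU, against 11.47, 11.23 and 11.67 in spontaneous cancers. The groups did not overlap, and Gpr37 fell by 1.34 ± 0.26. Its level in both kinds of cancer stood far above the 6.75 of normal tissue. Ptprd, a receptor-type tyrosine phosphatase, had values of 8.31, 7.12, 7.83 and 8.74, against 9.17, 9.92 and 9.76 in spontaneous cancers, and fell by 1.61 ± 0.32. Normal tissue lay between the group means of Ptprd at 8.63.

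Vsnl1, a calcium-sensing protein of the visinin family, had the largest fall among the 9 genes. Its values were 7.51, 8.70, 6.70 and 7.72 after radiation plus MNU, against 9.15, 11.42 and 8.82 in spontaneous cancers. It fell by 2.14 ± 0.41, and the spontaneous replicate 2 stood well above the other two of its group. Stc1, the secreted glycoprotein stanniocalcin 1, had values of 9.47, 9.04, 9.54 and 8.83, against 11.46, 10.27 and 10.04 in spontaneous cancers, and fell by 1.37 ± 0.26. Here replicate 1 was the high spontaneous cancer. The groups were separate for both genes.

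Chst8, a sulfotransferase that adds sulfate to the sugar chains of glycoprotein hormones, had values of 7.09, 8.05, 7.56 and 6.75 after radiation plus MNU, against 8.81, 9.38 and 8.92 in spontaneous cancers. It fell by 1.67 ± 0.33, and normal tissue was at 7.01. Obp3, a lipocalin that binds small hydrophobic molecules, had values of 7.03, 7.38, 6.60 and 7.55, against 8.48, 9.05 and 8.82 in spontaneous cancers, and fell by 1.64 ± 0.33. Its probe set may also pick up related lipocalins, so the family member behind the signal is uncertain. The groups did not overlap for either gene.

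Camta1, a calmodulin-binding transcription activator, had values of 9.23, 9.12, 8.74 and 8.84 after radiation plus MNU, against 9.84, 9.62 and 10.23 in spontaneous cancers, and fell by 0.91 ± 0.18. The probe sets of Camta1 disagreed, because a pair of dimmer ones differed by 0.08 and −0.01. Prss56, a serine protease, had values of 7.64, 7.48, 7.71 and 7.29, against 8.17, 8.19 and 8.30 in spontaneous cancers, and fell by 0.69 ± 0.14. These values of Prss56 lie near the lower limit set for testing. A second probe set of Obp3 also had lower values after radiation plus MNU, by −1.89, and so had that of Chst8, by −2.20.

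**Figure D1:**
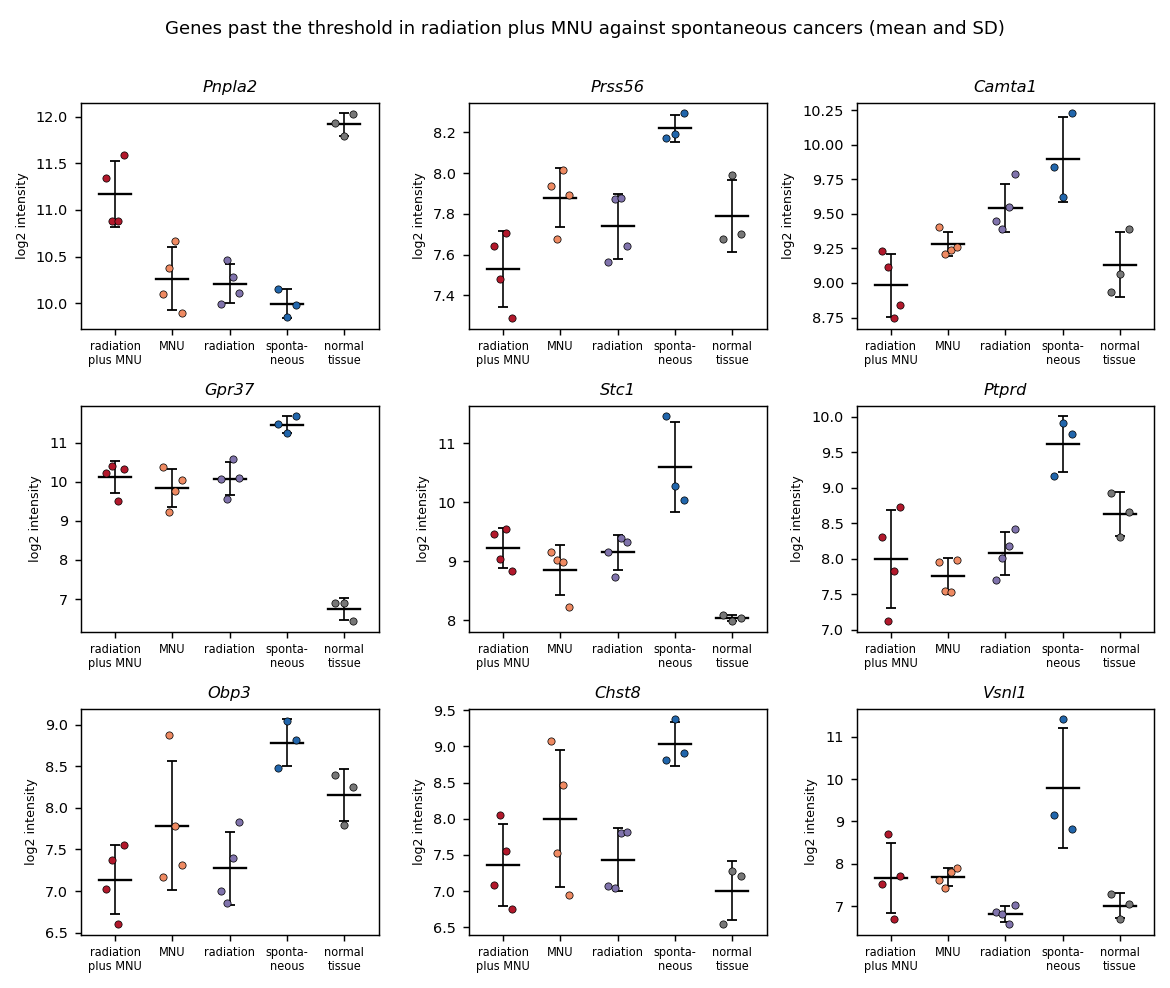
Log2 intensity of the 9 genes past the threshold, on each array of 5 groups, with the group mean and SD (n = 4 for radiation plus MNU, MNU and radiation, n = 3 for spontaneous and normal tissue). Radiation plus MNU and spontaneous cancers do not overlap for any of the 9 genes, and for Gpr37 both kinds of cancer lie above normal tissue.

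The 9 calls rest on few arrays. Leaving out spontaneous replicate 1 or 2, or radiation plus MNU replicate 1, 3 or 4, gave 0 genes past the threshold in limma. Without spontaneous replicate 3 there were 4, of which 2 were higher, 2 lower and 2 among the 9, and without radiation plus MNU replicate 2 there were 2, both lower and both among the 9. No difference of the 9 genes changed sign in these fits, and the difference of Pnpla2 stayed between 1.04 and 1.28. No gene passed either with a smaller added constant, with only the arrays of both groups, with only the cancers, with the mean of a gene's probe sets or with the signal ceiling as a covariate.

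Further genes had small p-values but did not pass the threshold. Among those with higher values were Afdn, which encodes the junction protein afadin (difference 0.85 ± 0.18, adjusted p = 0.0748), and the semaphorin Sema4b (1.01 ± 0.22, adjusted p = 0.0835). Glul, or glutamine synthetase, had values of 12.95, 12.77, 12.65 and 12.76 after radiation plus MNU, against 12.22, 12.08 and 11.96 in spontaneous cancers (adjusted p = 0.0979). All 3 probe sets of Glul gave a difference of the same sign. Pnpla7, a lysophospholipase of the family of Pnpla2, had values of 10.22, 10.25, 11.14 and 10.98, against 9.65, 8.89 and 8.76 (difference 1.55 ± 0.39, adjusted p = 0.156). The other genes with higher values were Ctu2, P2rx4, Creg1, Dennd6a, Klhl36, Irak2 and Tspan4. Their differences lay between 0.50 and 0.87, with adjusted p between 0.0979 and 0.188. A second probe set of Creg1 gave a difference of 0.77, but that of Pnpla7 gave a smaller one of 0.42 and that of Dennd6a gave −0.02.

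Among genes with lower values that did not pass were Ighmbp2, a DNA and RNA helicase (−0.59 ± 0.13, adjusted p = 0.0835), and Abi2, part of the complex that drives actin branching (−0.73 ± 0.16, adjusted p = 0.0835). Mrps18a, a protein of the mitochondrial ribosome, had a difference of −0.56, and Tubgcp4, a subunit of the gamma-tubulin ring, of −0.52, each with an adjusted p of 0.0903. The 4 values of Tubgcp4 after radiation plus MNU were 8.90, 8.89, 9.00 and 9.06, against 9.56, 9.39 and 9.50 in spontaneous cancers. Its groups were compact and did not overlap. Over all genes, groups did not overlap in 12.4% of cases, 4.4% with radiation plus MNU higher and 8.01% with it lower.

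Cell cycle genes had lower values after radiation plus MNU throughout. The members of this list copy DNA or carry cells through mitosis, and their RNA is known to rise and fall with the share of dividing cells. None of the 24 measured genes passed the threshold. All 24 had lower values after radiation plus MNU, against 56.7% of all genes, and 19 had an unadjusted p under 0.05, against 6.23% of all genes. The list median was −1.0, against −0.04 over all genes. Groups did not overlap for 19 of the 24, against 8.01% of all genes.

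The mean of the 24 genes on each array was 9.13, 8.91, 8.78 and 9.34 in the radiation plus MNU cancers, against 9.77, 10.09 and 10.19 in the spontaneous cancers. Every spontaneous cancer was above every radiation plus MNU cancer. The MNU cancers lay between 8.64 and 9.76 and the radiation cancers between 8.96 and 9.96, overlapping the radiation plus MNU cancers, while normal tissue lay between 8.22 and 8.89. With the signal ceiling of each array as a covariate, 10 of the 24 genes had an unadjusted p under 0.05 and the median was −0.80. That ceiling, the log2 of the mean of the 20 brightest probe sets of an array, ran from 13.53 to 14.06 in the radiation plus MNU cancers and from 13.50 to 13.67 in the spontaneous cancers. Without spontaneous replicate 3, 12 of the 24 had an unadjusted p under 0.05, and all 24 stayed below 0.

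Genes of entry into DNA replication were among those with the smallest p. Ccne2, a cyclin of the step into DNA synthesis, had values of 7.42, 6.70, 7.30 and 8.27 after radiation plus MNU, against 8.63, 9.15 and 9.07 in spontaneous cancers (−1.53 ± 0.41, adjusted p = 0.194 in limma). Its partner cyclin Ccne1 had a difference of −1.08 ± 0.34. Mcm2, part of the helicase that opens DNA for copying, had values of 9.35, 9.12, 9.15 and 9.74, against 10.09, 10.51 and 10.44, with a difference of −1.01 ± 0.32. Mcm4 and Mcm6 of the same helicase had differences of −0.94 and −1.04, while Mcm5 and Mcm7 were at −0.48 and −0.28 with unadjusted p above 0.05. E2f1, the transcription factor that switches on many of these genes, was measured in the RB pathway list and had a difference of −0.92 ± 0.33.

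Genes of mitosis had lower values too. Cdc20, the activator of the ligase that starts the separation of chromosomes, had values of 8.85, 9.24, 8.46 and 9.12 after radiation plus MNU, against 10.09, 10.68 and 10.86 in spontaneous cancers (−1.62 ± 0.48, adjusted p = 0.233 in limma). Birc5, or survivin, had values of 9.10, 9.09, 8.35 and 8.89, against 9.60, 9.86 and 10.33 (−1.07 ± 0.31, adjusted p = 0.222). Both groups were separate for both genes. Top2a, the topoisomerase that untangles chromosomes, had values of 10.34, 10.14, 10.06 and 10.26, against 10.85, 11.24 and 11.32 (−0.94 ± 0.36). Mki67, the proliferation marker Ki-67, had values of 10.08, 9.84, 9.16 and 10.05, against 10.79, 11.05 and 11.02 (−1.17 ± 0.46). In none of the 4 did a radiation plus MNU cancer reach the lowest spontaneous cancer.

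Promoters of cell cycle genes are known for 2 short elements, the CCAAT box and the CHR (cell cycle genes homology region). The promoters of Cdc20, Birc5 and Top2a are shown because each holds both and each gene is a mitotic member of the list. They were read from RefSeq for build GRCr8, from 250 bases before to 50 bases after the gene's start, and are written 5′ to 3′ on the gene's strand. Capitals mark the CCAAT box, searched as CCAAT on both strands, and the CHR, searched as TTTGAA on both strands or as the palindrome TTCGAA.
Cdc20, chr5:137255750-137256049, minus strand: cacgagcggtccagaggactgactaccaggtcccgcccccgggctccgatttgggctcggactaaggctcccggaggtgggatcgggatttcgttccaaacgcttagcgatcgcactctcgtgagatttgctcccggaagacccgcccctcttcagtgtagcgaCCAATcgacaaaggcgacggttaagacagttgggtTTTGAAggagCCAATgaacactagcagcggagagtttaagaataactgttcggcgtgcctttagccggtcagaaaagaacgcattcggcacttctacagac
Birc5, chr10:103571896-103572195, plus strand: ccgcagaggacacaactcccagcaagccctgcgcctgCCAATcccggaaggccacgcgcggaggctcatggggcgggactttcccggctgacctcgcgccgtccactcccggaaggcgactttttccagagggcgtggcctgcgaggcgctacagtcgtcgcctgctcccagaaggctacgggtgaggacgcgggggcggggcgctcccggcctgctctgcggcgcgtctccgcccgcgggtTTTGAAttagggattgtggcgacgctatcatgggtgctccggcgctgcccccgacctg
Top2a, chr10:84473044-84473343, minus strand: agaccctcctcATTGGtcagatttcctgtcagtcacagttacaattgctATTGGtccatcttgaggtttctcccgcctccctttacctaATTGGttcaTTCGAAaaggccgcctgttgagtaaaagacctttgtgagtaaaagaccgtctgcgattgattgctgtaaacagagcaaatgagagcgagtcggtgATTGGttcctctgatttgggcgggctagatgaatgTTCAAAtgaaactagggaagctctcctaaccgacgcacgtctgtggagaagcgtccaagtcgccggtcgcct
Counted from the listed start of the gene, the CHR lies at −8 in Birc5 and at −51 in Cdc20. The Top2a window holds 4 CCAAT boxes, all in the reverse orientation, and 2 CHR elements, and no CCAAT box overlaps a CHR in the 3 windows.

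Of the 24 cell cycle genes, 20 had a promoter in the RefSeq table. A CCAAT box in either orientation was found in 13 of these 20 (65%) and in 37.7% of 27457 promoters of the same length. A CHR was found in 10 of the 20 (50%) and in 19.5% of all promoters, and both elements in 8 (40%) and 7.83%. The GC box GGGCGG, which is not particular to cell cycle genes, was found in 14 of the 20 (70%) and in 34.9% of all promoters. These matches describe the letters of the windows and do not show that a factor binds there.

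**Figure D2:**
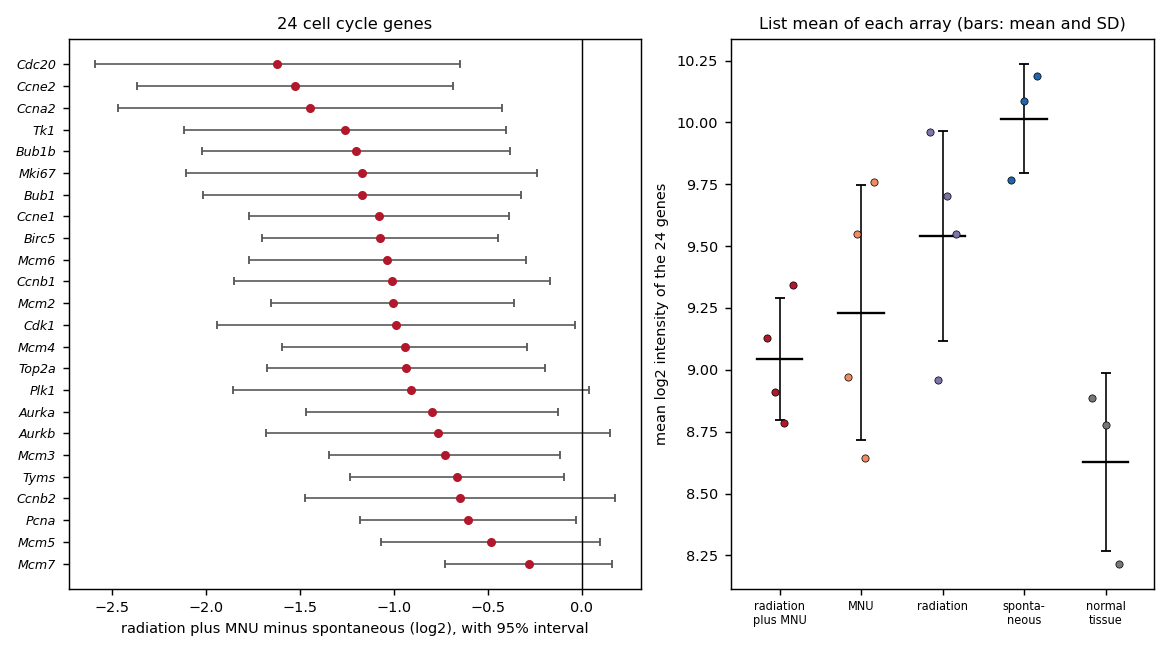
Left, difference of each of the 24 measured cell cycle genes in radiation plus MNU minus spontaneous cancers on the log2 scale, with its 95% interval. Right, mean of the 24 genes on each array, with the group mean and SD. All 24 differences lie below 0, and the radiation plus MNU arrays (8.78 to 9.34) lie below the spontaneous arrays (9.77 to 10.19) and overlap the MNU and radiation arrays.

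DNA repair genes were measured as a further list. Of 15, 11 had lower values, against 56.7% of all genes, 4 had an unadjusted p under 0.05 in that direction, against 6.23%, and the median was −0.20. Lig1, the ligase that joins newly copied strands, had values of 9.28, 9.22, 9.02 and 9.55 after radiation plus MNU, against 9.70, 9.91 and 9.91 in spontaneous cancers (−0.57 ± 0.16). Brca1, which acts in repair of strand breaks, had a difference of −0.50 ± 0.24, and Ogg1, which removes oxidized guanine, of −0.32 ± 0.15. Among 13 targets of the damage-response factor p53, 6 had higher and 7 lower values. Gadd45a, a growth arrest gene, was at 9.84, 10.40, 10.11 and 10.26, against 9.37, 9.54 and 9.16 (0.79 ± 0.27, adjusted p = 0.337), while Phlda3 had a difference of −0.64 ± 0.23. The p53 target Cdkn1a had a difference of −0.44 ± 0.37.

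Receptors for the mammary hormones and their targets had no common direction. Of 12 measured hormone receptors and targets, 6 had higher and 6 lower values, and the median was near 0. Pgr, the progesterone receptor, had values of 8.66, 7.81, 9.49 and 10.09 after radiation plus MNU, against 10.99, 10.16 and 10.59 in spontaneous cancers (−1.57 ± 0.57, adjusted p = 0.352), and normal tissue was at 7.34. All 4 values of Pgr lay below the spontaneous cancers. Prlr, the prolactin receptor, had a difference of −0.16 ± 0.56, and the growth factor Areg one of 0.01 ± 0.37. Of 10 EGF family genes, Btc, the ligand betacellulin, had values of 7.39, 7.59, 7.77 and 7.91, against 8.65, 8.71 and 9.08 (−1.15 ± 0.34, adjusted p = 0.233). It was the only EGF family gene with an unadjusted p under 0.05.

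In the FGF family, 7 genes were measured and 2 had an unadjusted p under 0.05, both with lower values, against 6.23% of all genes, Fgf2 (−0.51 ± 0.19) and the receptor Fgfr2 (−0.64 ± 0.31). Fgf3, a ligand known as a mammary oncogene in mice, was either high or near the lowest possible value. It had values of 10.11, 5.58, 11.31 and 9.88 after radiation plus MNU, against 9.56, 5.52 and 9.77 in spontaneous cancers. The MNU cancers averaged 5.62 and the radiation cancers 5.72. High Fgf3 thus occurred in 3 of 4 and 2 of 3 cancers of the groups compared here. Of 15 genes of ERK signalling output, downstream of RAS, 6 had higher and 9 lower values with a median of −0.06, and Ier3, an immediate early gene, had a difference of 0.88 ± 0.34.

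No gene of fatty acid synthesis passed the threshold. Of 13 measured, 11 had higher values and the median was 0.37. Thrsp, a regulator of fatty acid synthesis in mammary gland and liver, had values of 13.09, 11.37, 12.72 and 13.18 after radiation plus MNU, against 11.57, 11.20 and 10.60 in spontaneous cancers (1.47 ± 0.54, adjusted p = 0.367). Replicate 2 of the radiation plus MNU group lay within the spontaneous range. Acly, which makes the acetyl-CoA for the pathway, had a difference of 0.39 ± 0.17, and Elovl6, which lengthens fatty acids, went the other way at −0.86 ± 0.30. Of 10 cholesterol synthesis genes 8 had lower values, with a median of −0.19 and none with an unadjusted p under 0.05.

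No gene of the luminal, basal or tight junction lists passed the threshold. Of 17 luminal genes 13 had higher values, with a median of 0.13 that became −0.02 under quantile normalization. For 4 of the 17 the groups did not overlap, all with higher values after radiation plus MNU, against 4.4% of all genes. Of 13 basal and myoepithelial genes 10 had lower values, with a median of −0.12 that became 0.03 without spontaneous replicate 2. Epcam, an adhesion molecule of epithelia, had values of 13.61, 13.35, 13.64 and 13.52 after radiation plus MNU, against 13.23, 13.32 and 13.30 in spontaneous cancers (0.24 ± 0.11, adjusted p = 0.477). Krt14, a keratin of basal cells, had values of 11.27, 10.96, 11.02 and 10.90, against 11.52, 11.92 and 11.50 (−0.61 ± 0.45). Neither gene overlapped between the groups. Of 11 claudins and tight junction genes, 5 did not overlap and had higher values, against 4.4% of all genes, and none had an unadjusted p under 0.05. Cldn4, a claudin of luminal cells, was at 11.58, 11.04, 11.73 and 10.98, against 10.96, 10.94 and 10.75.

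Genes that handle foreign compounds were mixed. Of 11 measured, 5 had higher and 6 lower values. Gstm1, a glutathione transferase, had values of 8.77, 10.43, 7.62 and 8.60 after radiation plus MNU, against 11.09, 10.29 and 10.25 in spontaneous cancers (−1.69 ± 0.59, adjusted p = 0.339). Gsta1, of another class of the same enzymes, had values of 11.12, 10.63, 10.56 and 11.53, against 9.30, 10.17 and 9.70 (1.24 ± 0.54, adjusted p = 0.463). The groups were separate for Gsta1 and overlapped for Gstm1.

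**Figure D3:**
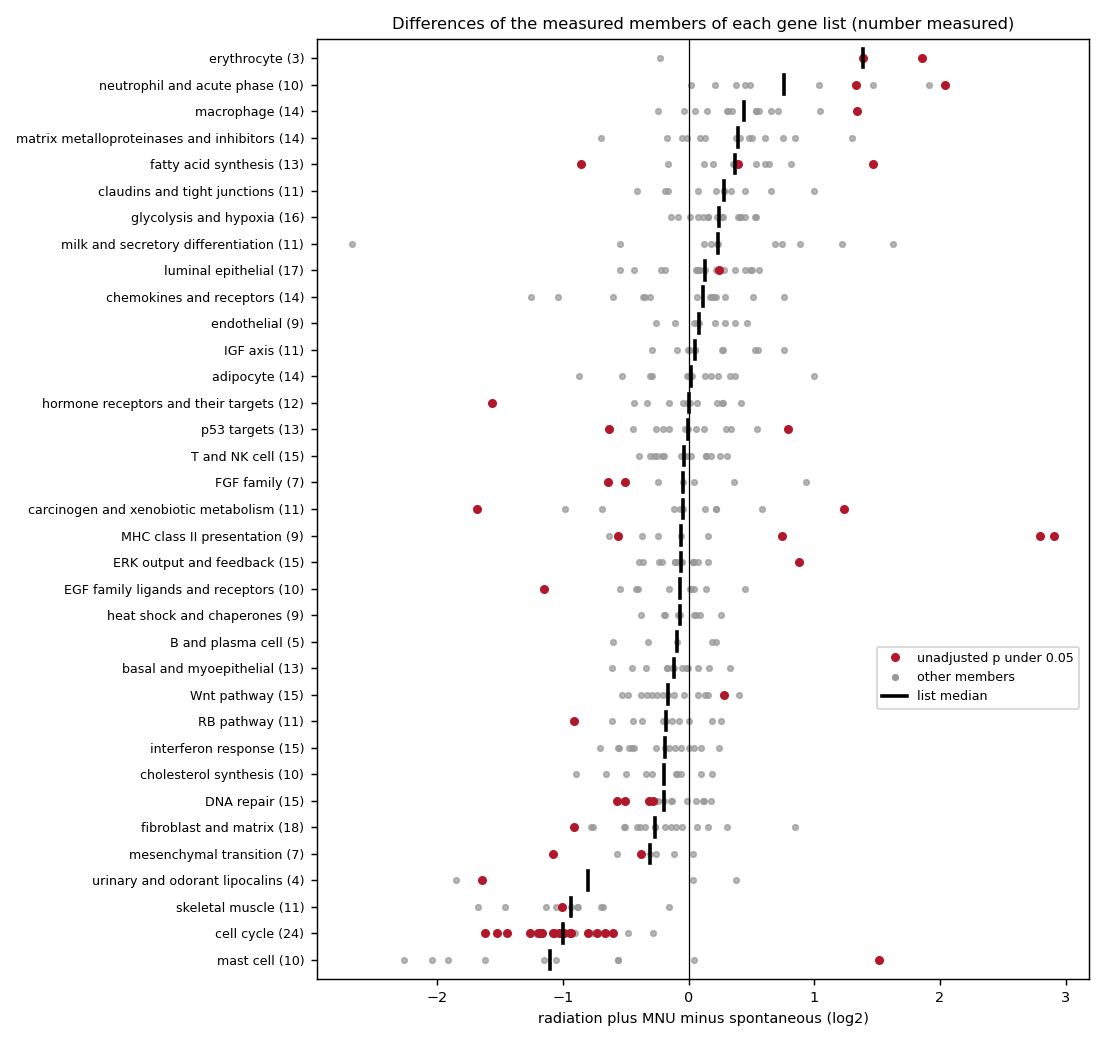
Difference in radiation plus MNU minus spontaneous cancers (log2) of every measured member of the 35 gene lists, with the list median as a bar and members with an unadjusted p under 0.05 in red. The cell cycle list lies wholly below 0 with a median of −1.0, and the neutrophil and acute phase list wholly above 0 with a median of 0.76.

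Lists of inflammatory genes differed in direction, and no gene of them passed the threshold. All 10 measured neutrophil and acute phase genes were above 0, against 43.3% of all genes, with a median of 0.76, and 2 had an unadjusted p under 0.05, against 3.22% of all genes. Of 15 interferon response genes 11 had lower values, with a median of −0.19, and 14 chemokines and receptors split into 8 with higher and 6 with lower values. C3, the central complement protein, had values of 10.86, 11.07, 12.19 and 12.52 after radiation plus MNU, against 9.69, 10.59 and 8.58 in spontaneous cancers (2.04 ± 0.76, adjusted p = 0.371). Cxcl1, a chemokine that draws neutrophils, had a difference of 1.33 ± 0.60. S100a9, a protein abundant in neutrophils, was at 9.32, 10.64, 8.63 and 8.67, against 6.88, 7.42 and 7.90, without overlap (1.91 ± 1.00).

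Of 14 macrophage genes, 12 had higher values, with a median of 0.44. Gpnmb, a glycoprotein of macrophages that also occurs in other cells, had values of 12.27, 12.54, 12.32 and 13.05 after radiation plus MNU, against 11.78, 11.10 and 10.73 in spontaneous cancers (1.34 ± 0.39, adjusted p = 0.224). The other members overlapped between the groups. The macrophage list mean was highest in replicates 2 and 4 of the radiation plus MNU group and lowest in its replicate 3. The T and NK cell list had a median of −0.04, with 6 of 15 genes above 0, and of 0.03 under quantile normalization.

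Among genes of antigen presentation to helper T cells (MHC class II), RT1-Ba and RT1-Bb split within the spontaneous group. RT1-Ba had values of 11.77, 12.67, 10.75 and 12.30 after radiation plus MNU, against 6.91, 7.93 and 12.04 in spontaneous cancers (2.91 ± 1.15). RT1-Bb had values of 10.95, 12.48, 9.45 and 11.20, against 6.53, 6.59 and 11.56 (2.80 ± 1.02). For both genes spontaneous replicates 1 and 2 were low and replicate 3 was as high as the radiation plus MNU cancers. The partner genes RT1-Da (−0.37), RT1-Db1 (−0.64) and Cd74 (−0.24) showed no such split, and the median of the 9 measured genes was −0.06, or 0.21 without radiation plus MNU replicate 3. Ciita, the master regulator of the class, had a difference of −0.56 ± 0.24, and Ctss, a protease that processes antigens, one of 0.74 ± 0.33.

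Genes of other tissues were high in single cancers. Muscle genes had high list means in replicate 4 of the radiation plus MNU cancers (8.99, against 7.29 to 7.56 in the other 3) and in replicates 1 and 3 of the spontaneous cancers (10.06 and 8.94, against 7.31 in replicate 2). All 11 measured muscle genes had lower values after radiation plus MNU, with a median of −0.94, and Tnni2 alone had an unadjusted p under 0.05. Mast cell genes were high in replicate 2 of the radiation plus MNU cancers, with a list mean of 11.11 against 7.03 to 7.67 in the other 3, and lay between 8.43 and 9.98 in spontaneous cancers. Cpa3, a mast cell protease, had values of 7.88, 12.88, 7.69 and 8.44, against 9.83, 10.69 and 12.02. Kit, a growth factor receptor of mast cells that luminal cells also carry, did not follow the other mast cell genes, as it had values of 10.84, 10.38, 11.19 and 11.01, against 9.62, 8.89 and 9.49 (1.52 ± 0.58, adjusted p = 0.396).

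Of 3 measured red blood cell genes, 2 had higher values after radiation plus MNU. Hbb, the beta chain of haemoglobin, had values of 10.68, 12.04, 11.41 and 12.67, against 9.34, 9.75 and 10.43 in spontaneous cancers (1.86 ± 0.58, adjusted p = 0.298). Alas2, which starts haem synthesis in red cell precursors, had a difference of 1.38 ± 0.46, and the third measured gene, Slc4a1, one of −0.23 ± 0.33. The probe set of Hbb may bind other globin genes. Of 18 fibroblast and matrix genes, 14 had lower values, with a median of −0.27, and the collagen Col6a3 had a difference of −0.91 ± 0.31. The part of blood, muscle, mast cell or stromal content in the 9 calls and in the cell cycle shift was not tested.

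**Figure D4:**
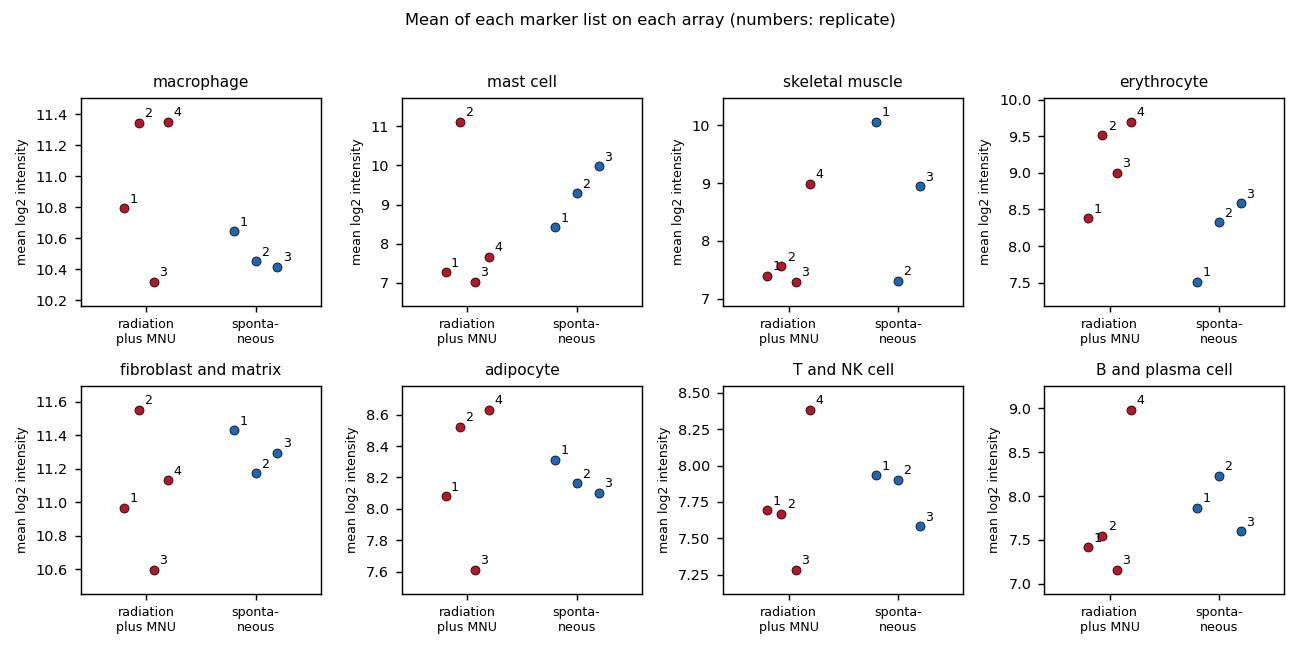
Mean log2 intensity of 8 lists of marker genes on each radiation plus MNU and each spontaneous array, with the replicate number beside each point. Radiation plus MNU replicate 2 stands out for mast cells (11.11), replicate 4 for muscle (8.99), and spontaneous replicates 1 and 3 are high for muscle (10.06 and 8.94).

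Set against MNU alone, the radiation plus MNU cancers had no gene past the threshold (0% of 11773 in limma), with 927 genes (7.87%) at an unadjusted p under 0.05 and a smallest adjusted p of 0.252. Genes with the smallest p included Plaur, the urokinase receptor (difference 0.99), and Krt17, a keratin of basal cells (−1.06). MNU replicate 4 stood apart from the other arrays in its hexokinase 3′/5′ ratio, a measure of RNA integrity, which was 12.2, against 2.09 to 2.56 in the radiation plus MNU cancers and 1.66 to 2.73 in the spontaneous cancers. Plaur was at 6.06 on that array, against 7.23, 7.34 and 7.33 in the other MNU cancers, and its difference was 0.68 without it. With the 3′/5′ ratio as a covariate, 609 genes had an unadjusted p under 0.05 and the smallest adjusted p was 0.477, and without MNU replicate 4 these were 746 and 0.106. Against radiation alone, no gene passed either (0%), with 972 genes (8.26%) at an unadjusted p under 0.05 and a smallest adjusted p of 0.267. Among these was Ptges, which makes prostaglandin E, with a difference of 1.34. A p that misses the threshold does not show that the groups are alike. The cell cycle list had a median of −0.17 against MNU, with no gene at an unadjusted p under 0.05, and of −0.52 against radiation, with 7 genes.

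The 9 genes can be placed beside the single exposures, which were compared with the same 3 spontaneous cancers. MNU cancers had 5 genes past the threshold (0.0425%) and radiation cancers 3 (0.0255%). Gpr37 averaged 10.12 after radiation plus MNU, 9.84 after MNU and 10.07 after radiation, against 11.46 in spontaneous cancers. Stc1 averaged 9.22 after radiation plus MNU, 8.85 after MNU and 9.15 after radiation, against 10.59 in spontaneous cancers. Both genes and Vsnl1 passed the threshold in all 3 comparisons. Pnpla2 averaged 11.17 after radiation plus MNU, 10.26 after MNU and 10.21 after radiation, against 9.99 in spontaneous cancers, and it differed from MNU by 0.91 (adjusted p = 0.252) and from radiation by 0.96 (adjusted p = 0.279). In radiation plus MNU cancers with H-ras mutation (n = 5) Pnpla2 averaged 10.91, with values from 10.3 to 11.8.

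The 26 cancers of the other groups followed radiation, MNU, PhIP, or radiation with either chemical, and included cancers with and without H-ras mutation. Gpr37, Prss56, Ptprd and Vsnl1 were below all 3 spontaneous cancers in 26 of 26. Chst8, Obp3 and Stc1 were below in 25 and Camta1 in 20. Pnpla2 was above all 3 spontaneous cancers in 18 of the 26. The same spontaneous arrays serve in each of these counts.

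The last comparison asked whether the effect of radiation differed with and without MNU in cancers lacking an H-ras mutation. It was the difference between radiation plus MNU and MNU, minus the difference between radiation and spontaneous cancers. In limma 3 genes passed the threshold (0.0255%), Plg, Vsnl1 and Dach1, all with a positive term, and 869 (7.38%) had an unadjusted p under 0.05. Dach1, a transcription factor of the dachshund family, had values of 10.72, 11.22, 9.77 and 9.31 after radiation plus MNU, 9.49, 9.15, 9.04 and 9.16 after MNU, 9.31, 8.95, 8.73 and 9.80 after radiation, and 10.89, 10.81 and 10.53 in spontaneous cancers. Its values after radiation plus MNU spanned the range from the single exposures to the spontaneous cancers.

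The interaction of Dach1 was 2.59 ± 0.45 (adjusted p = 0.0182), from an effect of radiation of 1.05 after MNU and of −1.55 without it. Plg, the precursor of the blood protease plasmin, had values of 8.45, 9.66, 8.22 and 9.21 after radiation plus MNU, 7.20, 6.50, 8.32 and 7.48 after MNU, 7.48, 7.52, 6.96 and 7.07 after radiation, and 10.02, 10.40 and 9.75 in spontaneous cancers. The radiation plus MNU cancers lay below the spontaneous and above the radiation cancers, and overlapped the MNU cancers at a single value. The interaction of Plg was 4.31 ± 0.75 (adjusted p = 0.0182).

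For Vsnl1 it was 2.95 ± 0.56 (adjusted p = 0.0488), from −0.03 after MNU and −2.98 without it. The sum of both single effects would place Plg at 4.58 and Vsnl1 at 4.71, under the lowest possible value of 5.42, so part of their positive term is fixed by the scale. For Dach1 that sum is 7.66, within the range of the assay. The spontaneous cancers enter the interaction with a positive sign. Of the 26 cancers of the other groups, Plg and Vsnl1 were below all 3 spontaneous cancers in 26, and Dach1 in 25. The part of the high spontaneous level in these terms was not tested. Without radiation replicate 2 or 3, MNU replicate 2 or radiation plus MNU replicate 1, 0 genes passed. Without radiation replicate 4 or MNU replicate 1 or 3, 1 gene passed, without spontaneous replicate 3 or radiation plus MNU replicate 3, 5 did, and without spontaneous replicate 2, 6 did, 2 of them among the 3. Without MNU replicate 4, the array with the high 3′/5′ ratio, Dach1 and Plg passed and Vsnl1 did not (adjusted p = 0.0803), while with that ratio as a covariate Dach1 and Vsnl1 passed and Plg did not (adjusted p = 0.0634). With all arrays, genes with a negative term did not pass. The smallest p among them were those of Khdrbs3, an RNA-binding protein (−2.54), and Fcgbp, a mucus-associated protein (−4.24). Without spontaneous replicate 2 or without radiation replicate 1, 1 gene with a negative term passed. Fcgbp passed in 1 of the 15 fits that left out 1 array, and its spontaneous values were 7.67, 11.47 and 7.43.

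**Figure D5:**
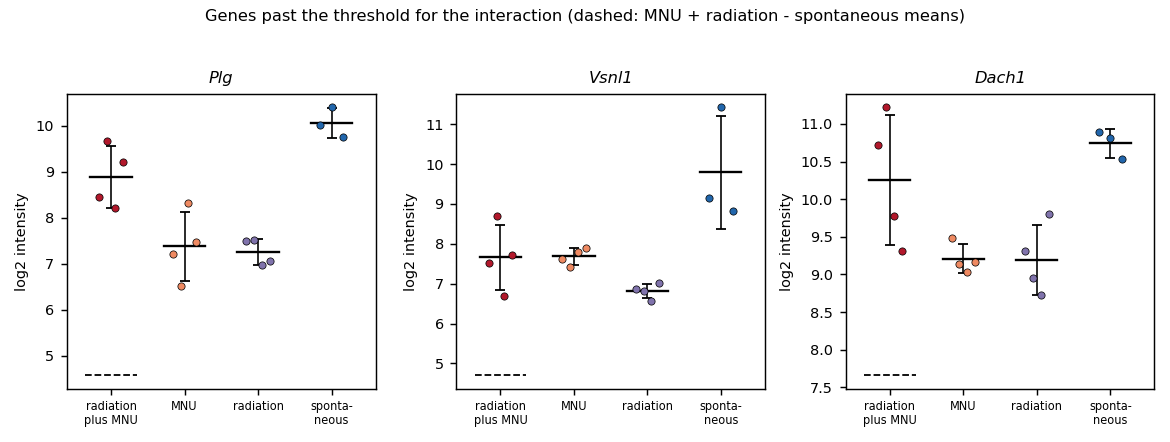
Log2 intensity of Plg, Vsnl1 and Dach1 on each array of the 4 groups without H-ras mutation, with the group mean and SD. The dashed line marks the sum of the single effects, 4.58 for Plg, 4.71 for Vsnl1 and 7.66 for Dach1. Every radiation plus MNU cancer lies above it for Dach1. For Plg and Vsnl1 the line is under the lowest possible value of 5.42, so no array could lie below it.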

How the data were processed

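Expression was measured on 36 single-colour arrays in 10 groups, and no array was left out. The groups were taken from the sample titles, and for cancers after PhIP alone also from their H-ras labels. The authors deposited 1 linear intensity per probe set and array. The method of summarising probes is not given in the labels or file headers used. Trimming 2% of probe sets from both ends left a mean of 500 on each array, which shows a scaling of whole arrays, and no further normalization was added. The number of arrays limits the precision.

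Values were taken as log2(intensity + 42.8), the constant being the 20th percentile. Of 31099 probe sets, 20832 had 1 gene symbol, 436 several and 9831 none, and only those with 1 symbol were used. Genes above an intensity of 125.8 (the 40th percentile) on 3 or more arrays were kept. Group means over all 36 arrays were fitted in limma 3.58.1 (R 4.3.3), with 26 residual degrees of freedom and Benjamini-Hochberg adjustment, and the procedure was tested on simulated data. Alternatives changed the constant, filter, normalization, arrays fitted, probe set rule, variance model, array weights, covariates and replicate block, or left out 1 array.

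The groups, gene lists and tests were chosen with earlier results of these data known. Genes named are, in the comparison with spontaneous cancers, up to 15 of the largest rises and falls past the threshold, filled to 12 per direction by the smallest unadjusted p, up to 4 per direction in the other comparisons, and up to 4 of each list by the smallest p. Other members were named after their values were seen.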

Additional observations from a re-analysis of the deposited data

Results flagged for a closer look

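The mean of the mast cell genes was 11.11 in replicate 2 of the radiation plus MNU cancers, against 7.03 to 7.67 in the other 3 cancers of that group. The mean of the skeletal muscle genes was 8.99 in replicate 4, against 7.29 to 7.56 in the other 3. In both cases the gap to the nearest array, divided by the range of the group, was 0.843, above Dixon's 95% critical value for 4 samples. These were 2 of 59 values searched for an array standing apart, and chance gives about 1 in 20.

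The effect of radiation after MNU differed from that without MNU, by the interaction test in limma, for Dach1 by 2.59, for Plg by 4.31 and for Vsnl1 by 2.95 on the log2 scale. For Plg and Vsnl1 the sum of the single effects lies under the lowest possible value of the scale, as stated above. The spontaneous cancers enter this term with a positive sign. Plg and Vsnl1 were below all 3 of them in 26 of the 26 cancers of the other groups, and Dach1 in 25. The part of the high spontaneous level in the term was not tested.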

How the results depend on the processing

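The 9 genes past the threshold against spontaneous cancers became 0 with the added constant at the 5th percentile (smallest adjusted p 0.0708), with only the 7 arrays compared (0.108), with the 33 cancers only (0.0544), with the mean of a gene's probe sets (0.0806) and with the signal ceiling as a covariate (0.168). They became 116 with array weights, of which 37 were higher and 79 lower, but the estimate of those weights did not converge, and 15 with the 3′/5′ ratio as a covariate, 3 higher and 12 lower. Quantile normalization gave 8, of which 2 were higher and 6 lower, against 1 and 8, and kept 6 of the 9. Leaving out 1 array gave 0 to 4. The counts of 0 against MNU and against radiation were 0 to 1 when 1 array was left out, with 1 gene without radiation plus MNU replicate 2 in both and without radiation replicate 1 in the second. The 3 interactions became 1 with the constant at the 5th percentile, 1 with only the groups compared, 17 with array weights, 0 with the ceiling as a covariate and 0 to 6 when 1 array was left out. With a replicate block the 9 genes became 0 (smallest adjusted p 0.0757) and the 3 interactions 2. Deviations of same-numbered arrays correlated between −0.0068 and 0.0291, and the labels do not tie the numbers, so the samples share only a number. No named gene changed sign. List medians changed sign in 55 of 700 cases, in 19 lists, among them mast cell genes (−1.10, or 0.04 with the ceiling as a covariate) and chemokines (0.12, or −0.31 with the filter at the 60th percentile). In 12 cases a median moved beyond the spread between replicates, in the EGF (−0.07, to −0.28), ERK (−0.06, to −0.29), DNA repair (−0.20, to −0.12), IGF (0.05, to 0.27), chemokine and lipocalin (−0.80, or −0.03 without a filter) lists. The causes of these shifts were not tested.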

Other observations

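A pair of gene groups that stood out was assembled after the values had been seen, so neither group was tested as a whole. The unadjusted p of their members come from the same values that picked them and are only descriptive. The shares over all genes are printed for scale only. Because the choice used these values, a higher share in either group is no support for a shift. Of 16 measured genes that glucocorticoid hormones are known to induce, 15 had higher values after radiation plus MNU than in spontaneous cancers, with a median difference of 1.04, and 8 had an unadjusted p under 0.05, against 3.22% of all genes. Fkbp5, a chaperone of the glucocorticoid receptor, had values of 9.93, 9.24, 9.20 and 10.42 after radiation plus MNU, against 7.74, 8.35 and 8.17 in spontaneous cancers (1.61 ± 0.50). Sgk1, a kinase of ion transport, differed by 1.58, the transcription factor Klf15 by 1.67, Tsc22d3, which dampens inflammation, by 1.28, and Pdk4, which restrains glucose oxidation, by 2.36. Dusp1 went the other way at −0.15. The mean of the group ran from 10.24 to 10.70 in radiation plus MNU cancers, from 9.88 to 10.61 in MNU cancers, from 9.66 to 10.13 in radiation cancers and from 9.31 to 9.71 in spontaneous cancers, and normal tissue lay between 10.31 and 10.89.

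Of 15 measured genes of the circadian clock, 10 had higher values after radiation plus MNU, against 43.3% of all genes, with a median of 0.66, and 7 had an unadjusted p under 0.05, against 3.22%. Nr1d1, a repressor of the clock, had values of 9.57, 9.44, 9.54 and 9.44 after radiation plus MNU, against 8.44, 8.80 and 8.33 in spontaneous cancers (0.98 ± 0.35). The groups did not overlap. Dbp, a clock output factor, differed by 0.91, Per3 by 0.80 and Per2 by 0.72, while Bmal1, the activator of the loop, differed by −0.24. The labels give no hour at which tissue was taken, and Per1 belongs to both groups of genes.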
